A study of Mus musculus with 8 samples.

Results

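Prox1, Flt4, Ccl21a, Reln, Mmrn1 and Pdpn are 6 transcripts used to mark the endothelium of lymphatic vessels, and they were followed here in macrophages sorted from mouse fat. They were chosen by ARM against SM fold change on a normal diet (ND), where several were among the largest rises in adhesion-related macrophages (ARMs). Their ND values are therefore a description, and a test is given only for mice on a high-fat diet (HFD). All 6 were listed in both expression tables, among 17740 genes for HFD mice, 16436 genes for ND mice and 16136 genes listed for both.

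The question behind the libraries was how macrophages attached to adipocytes differ from the remaining macrophages of the same depot. Epididymal white adipose tissue (eWAT) of wild-type male C57BL/6J mice was digested with collagenase. ARMs were sorted from the pellet left after the floating adipocytes were broken up, and stromal vascular fraction macrophages (SMs, named NARM in the sample titles) were sorted from the sedimented cells. Diets began at 6 weeks of age, the HFD group ate the high-fat diet for 8 weeks and the ND group ate the normal diet. RNA-seq gave 2 libraries for each of the 4 groups. Every HFD library pooled 6 mice and every ND library pooled 10 mice, so the spread between libraries is a spread between pools, and the animals behind a pool were not separated.

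Lymphatic endothelial cells line the vessels that drain tissue fluid and migrating leukocytes from adipose tissue. Their identity is set by the homeobox transcription factor PROX1, and they grow in response to VEGF-C and VEGF-D through the receptor tyrosine kinase VEGFR-3, which Flt4 encodes. They secrete the chemokine CCL21, which draws CCR7-bearing dendritic cells and T cells, the glycoprotein reelin, and multimerin-1 of the EMILIN family of matrix proteins. Podoplanin, their best known surface mucin, binds the platelet receptor CLEC-2, and it is also made by mesothelial cells, by fibroblasts and by some macrophages.

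Depth was similar across libraries, with 18288775 to 19040133 estimated reads in HFD mice and 14508824 to 16319038 in ND mice. The sorted cells carried macrophage transcripts in every library. None of 12 macrophage markers was called in either diet by edgeR's quasi-likelihood test or by DESeq2, beside 4.75% (HFD) and 3.68% (ND) of all genes called in either direction by edgeR, with 5 (HFD) and 1 (ND) at an unadjusted p under 0.05 in edgeR, and Csf1r stood between 1765 and 2455 TPM, the deposited level scaled for transcript length and library size. A call needed a fold change above 1.5 together with a Benjamini-Hochberg adjusted p, taken over all genes tested, below 0.05. Among all tested genes, 4.46% were called higher in ARMs than in SMs in HFD mice (595 of 13337) and 3.55% in ND mice (442 of 12441), while 0.292% and 0.129% were called lower. Permuting 2 libraries against 2 exactly can reach no p below 0.333, so no such test is given for single genes.

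In HFD mice, Flt4 at 4.58-fold and Mmrn1 at 3.35-fold the SM level were called higher in ARMs. Reln, at 6.87-fold, was also called, but it passed the filter on low counts only through the ARM libraries and so had to differ. Flt4 and Mmrn1 each had an SM library at 7 reads and also needed the ARM libraries to pass that filter. With no filter neither was called (edgeR adjusted p = 0.0744 and 0.1435). The calls made 3 of the 6 transcripts, beside 4.46% of all genes, and none of the 3 had 10 reads in every library. Of the 3 that did, Prox1, Ccl21a and Pdpn, a test limited to such genes called 0 (2 at an unadjusted p under 0.05). Pdpn and Ccl21a had both ARM libraries above both SM libraries, which 26.2% of all tested genes did, without passing the test. For Ccl21a the nearest libraries stood at 56.6 reads (ARM) and 55.9 reads (SM). Prox1 did not separate the groups. In ND mice 4 of the 6 passed the same thresholds, beside 3.55% of all genes, and that count follows from how the transcripts were picked. All 6 passed the filter in both diets, but in ND mice Mmrn1, Ccl21a, Reln and Flt4 did so only through the ARM libraries.

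**Figure D1:**
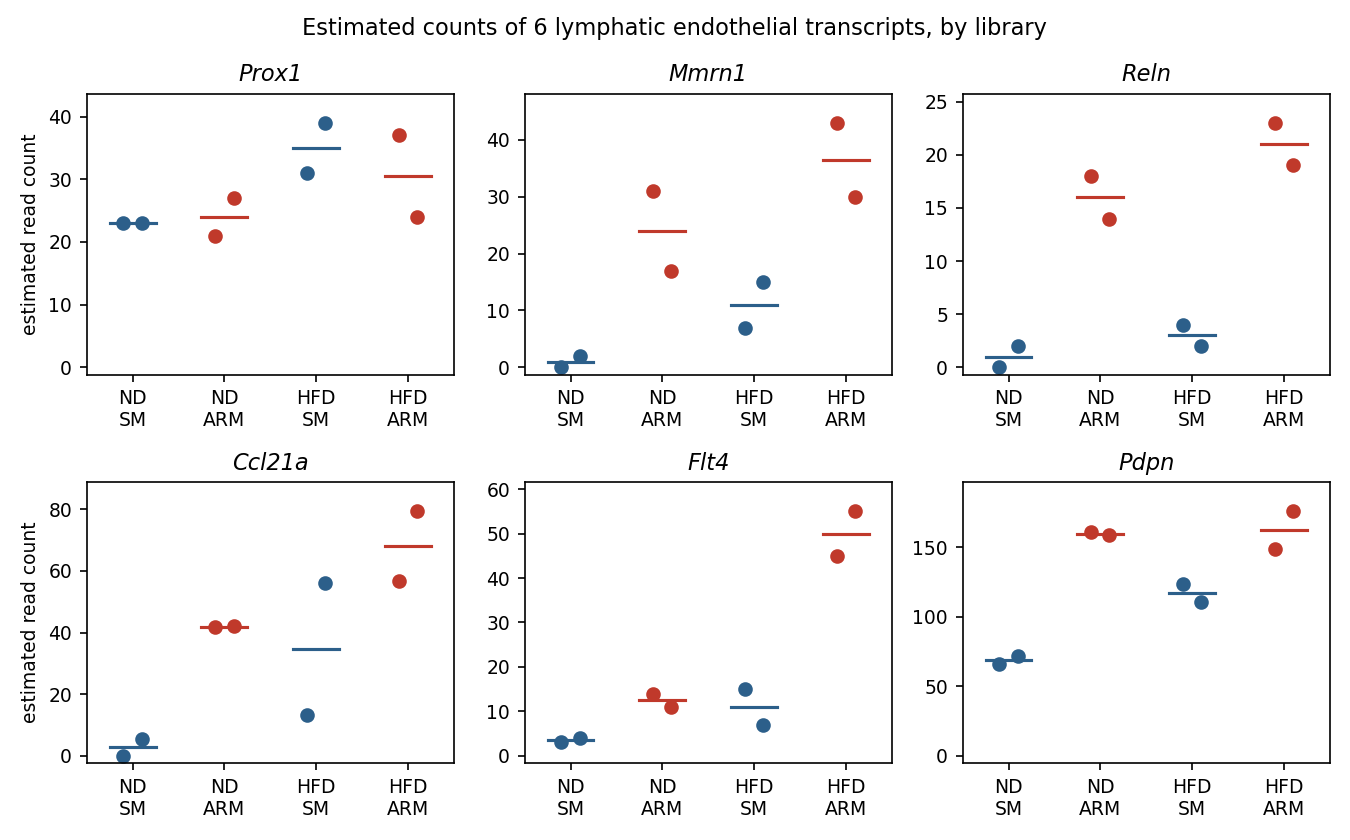
Estimated read counts (vertical axis, from 0, own scale per panel) of the 6 transcripts in the 8 libraries, with 1 point per library and a bar at the mean of each group's 2 libraries, SMs in blue and ARMs in red. Prox1 stays between 21 and 39 in every group, while the ARM points of Mmrn1, Reln and Flt4 lie above the SM points of the same diet.

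Prox1 (Entrez 19130, chr1:190118035-190170827) encodes the transcription factor that defines lymphatic endothelium. It gave 37 and 24 reads in the ARM libraries and 31 and 39 in the SM libraries of HFD mice. In ND mice it gave 21 and 27 reads in ARMs and 23 in each SM library. The groups overlapped in both diets. The log2 fold change in HFD mice was -0.17 (SE 0.31, 95% interval -0.87 to 0.52, edgeR adjusted p = 0.802), so a change of up to 1.43-fold upward or 0.548-fold downward lies within the interval. In ND mice the ratio of summed normalized counts was 1.04, with an exact 95% counting interval of 0.681 to 1.60. Such counting intervals, here and below, leave out the spread between pools and the choice of the transcripts by their ND change. A noncoding antisense gene overlaps the start of Prox1 in the annotation, and strand use in the counting is not given in the sources used here, so reads of either could be counted together. Since the defining factor overlapped between groups, the set is described below gene by gene and not as a cell type.

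Among other transcription factors of lymphatic and venous endothelium, Sox18, which switches Prox1 on in the embryo, gave 81 and 66 reads in HFD ARMs against 29 and 21 in SMs. It was called higher in HFD mice (log2 fold change 1.57, SE 0.26, edgeR adjusted p = 0.00465). It overlapped between groups in ND mice, with 9 and 24 against 7 and 12 reads (log2 0.81, edgeR adjusted p = 0.588). Nr2f2, the venous factor that acts with Prox1, was above SM in both diets without passing the test, at 0.74 on the log2 scale (edgeR adjusted p = 0.187) in HFD mice and 1.03 (edgeR adjusted p = 0.320) in ND mice. Sox18 and Nr2f2 are also expressed in blood vessels. Of all genes, 4.46% (HFD) and 3.55% (ND) were called higher. Of the 8 factors listed, 6 could be tested for HFD mice and 1 was called, and 4 could be tested for ND mice with none called by edgeR or DESeq2 and 2 at an unadjusted p under 0.05 in edgeR. Without ARM replicate 1 the HFD count was 0.

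Flt4 (Entrez 14257, chr11:49609679-49652739), the receptor for VEGF-C and VEGF-D, had the smallest edgeR p of the 6 in HFD mice. The ARM libraries gave 45 and 55 reads and the SM libraries 15 and 7. The SM libraries alone would not have carried Flt4 past the filter on low counts. Each ARM library had 3 times the reads of the higher SM library or more. The log2 fold change was 2.19 (SE 0.37, 95% interval 1.38 to 3.01, edgeR adjusted p = 0.00466). In ND mice Flt4 was scarce, with 14 and 11 reads in ARMs and 3 and 4 in SMs, a ratio of 3.57 with a counting interval of 1.5 to 9.76. Both ARM libraries again lay above both SM libraries, which 21.2% of all tested genes did in ND mice and 26.2% in HFD mice. The HFD call rested on having both ARM libraries, since the edgeR adjusted p was 0.0507 without ARM replicate 1 and 0.106 without ARM replicate 2.

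The ligands of this receptor did not move together. Vegfc was low and overlapped in HFD mice, with 23 and 16 reads in ARMs and 25.1 and 14.7 in SMs (log2 -0.01, SE 0.39, edgeR adjusted p = 0.990). In ND mice it gave 13.9 and 19.9 reads in ARMs against 11 and 10 in SMs (log2 0.69, SE 0.47, edgeR adjusted p = 0.572). Vegfd, the second ligand, was called higher in ND ARMs at 40 and 63 against 14 and 19 reads (log2 1.65, SE 0.38, edgeR adjusted p = 0.0185). In HFD mice Vegfd reached 46 and 44 against 21 and 28 reads, with the groups apart and the test not passed (log2 0.90, SE 0.28, edgeR adjusted p = 0.0754).

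Kdr, which encodes VEGFR-2 of blood and lymphatic endothelium, was called higher in HFD ARMs, with 283 and 240 reads against 95 and 103 (log2 1.42, SE 0.14, edgeR adjusted p = 0.000212). In ND mice Kdr overlapped, at 101 and 170 against 73 and 117 reads (log2 0.54, edgeR adjusted p = 0.400). Svep1, a matrix protein needed for lymphatic remodelling, was called higher in both diets, at 0.80 on the log2 scale in HFD mice (edgeR adjusted p = 0.00527) and 1.36 in ND mice (edgeR adjusted p = 0.00308). Nrp2, the neuropilin that binds VEGF-C and is abundant in macrophages, was not called in either diet. Of 9 listed genes in this pathway 8 were tested in each diet and 2 were called higher in each, with none lower. They were Kdr and Svep1 in HFD mice and Vegfd and Svep1 in ND mice, beside 4.46% (HFD) and 3.55% (ND) of all genes called higher. The HFD count was 1 without either ARM library. The ND count was 0 by DESeq2 or without ARM replicate 2, 1 without SM replicate 1, and 3 without ARM replicate 1 or SM replicate 2.

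Ccl21a (Entrez 18829, chr4:42772860-42773991) encodes the chemokine that lymphatic vessels display to CCR7-bearing cells. Mouse carries near-identical copies of this gene on chromosome 4, so reads can be split among them. Within the coding sequence of 402 bases, Ccl21a differs from Ccl21b, Gm10591, Gm13304 and Gm21541 at the same positions, T84A and C194T, with the base of Ccl21a written before the position counted from 1 at the A of the start codon. The stretch from base 71 to base 210 is shown because it holds both differences, which are in capitals, and is taken from GENCODE M21 transcripts of the mm10 genome (GRCm38), read along the coding strand.
Ccl21a: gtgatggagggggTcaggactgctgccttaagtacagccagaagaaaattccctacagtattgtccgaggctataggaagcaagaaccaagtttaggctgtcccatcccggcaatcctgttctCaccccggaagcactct
Ccl21b, Gm10591, Gm13304 and Gm21541: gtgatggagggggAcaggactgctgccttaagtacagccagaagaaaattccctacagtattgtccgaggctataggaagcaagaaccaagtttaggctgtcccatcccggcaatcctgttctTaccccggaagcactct
A read tells Ccl21a from these copies in this stretch only by the capitals. Of 771 windows of 100 bases along the Ccl21a transcript of 870 bases, 388 (50.3%) occur without a mismatch in the annotated transcript of a copy. The comparison used 1 transcript per copy, and that of Ccl21b held only the coding sequence. Windows can therefore lack a match because the annotated transcript is shorter, and Ccl21c was not compared.

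Ccl21a gave 56.6 and 79.3 reads in the ARM libraries of HFD mice and 13.3 and 55.9 in the SM libraries. SM replicate 2 lay just below ARM replicate 1, and SM replicate 1 stood well below the other libraries. The log2 fold change was 0.998 (SE 0.46, 95% interval -0.02 to 2.02, edgeR adjusted p = 0.226). Without SM replicate 2 it was 2.40 and called (edgeR adjusted p = 0.00153), and without SM replicate 1 it was 0.30 (edgeR adjusted p = 0.635). In ND mice Ccl21a gave 41.6 and 42.2 reads in ARMs and 0 and 5.48 in SMs, a ratio of 16.8 with a counting interval of 6.91 to 53.0. The ND groups were far apart and the HFD groups nearly touched.

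Ccl21b had reads in SM libraries only, with 13.2 in HFD SM replicate 2, 1 and 3.52 in the ND SM libraries and 0 in every other library. Ccl21c, Gm10591, Gm13304 and Gm21541 had one shared value in each library and reads in ARM libraries only. Each was given 11.03 and 11.72 reads in HFD ARMs, 6.78 and 6.04 in ND ARMs, and 0 in the 4 SM libraries. These equal values were not counted as separate evidence. The sum over the 6 listed copies was 101 and 126 reads in HFD ARMs and 13.3 and 69.1 in HFD SMs. Its log2 fold change was 1.49 (SE 0.46, 95% interval 0.48 to 2.50, edgeR adjusted p = 0.0699), which did not pass. In ND mice the sum was 68.8 and 66.3 reads in ARMs and 1 and 9 in SMs. Adding the copies widened the gap between groups in HFD mice and left the order of libraries as it was for Ccl21a.

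**Figure D2:**
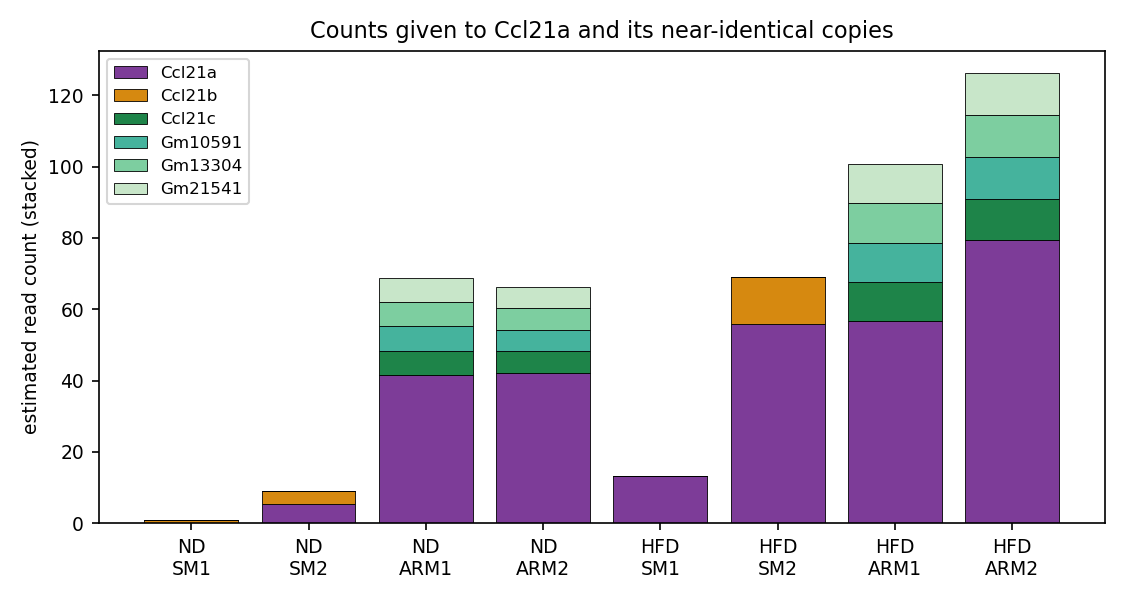
Estimated read counts (vertical axis, from 0) given to Ccl21a and to each listed copy, stacked by library, for SM and ARM libraries of ND and HFD mice. Ccl21b appears only in SM bars and the 4 copies with equal values (green) only in ARM bars, and HFD SM replicate 2 reaches 69.1 reads in all, against 13.3 in HFD SM replicate 1.

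No receptor of CCL21 that could be tested was called higher. Ccr7, its signalling receptor, was lower in HFD ARMs in each library, at 56 and 89 reads against 107 and 186, without passing the test in edgeR (log2 -0.99, SE 0.28, edgeR adjusted p = 0.0527). In ND mice Ccr7 overlapped at 36 and 73 against 62 and 91 reads (log2 -0.47, edgeR adjusted p = 0.593). Ackr4, the scavenger that removes CCL21, gave 6.04 and 10.01 reads in HFD ARMs against 7 and 13.06 in SMs, and 5 and 9 in ND ARMs against 1 and 5 in SMs, where it was not tested. Over all genes, edgeR called 4.75% (HFD) and 3.68% (ND) in either direction, and 0.292% and 0.129% lower. Of the 4 genes of this axis, 2 (HFD) and 1 (ND) had enough reads for a test. None was called by edgeR, with 1 (HFD) and 0 (ND) at an unadjusted p under 0.05. In HFD mice 1 was called lower by DESeq2, at the threshold of the study's methods, and by edgeR with the replicate number as a block, with 10 counts in every library or without SM replicate 1. DESeq2 called none in ND mice.

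Reln (Entrez 19699, chr5:21884454-22344705) encodes reelin, the secreted glycoprotein best known from cortical layering, which lymphatic endothelium releases when in contact with smooth muscle. It was the scarcest of the 6 by length-scaled level. HFD ARMs gave 23 and 19 reads and HFD SMs 4 and 2. Its log2 fold change of 2.78 was the highest of the 6 in HFD mice (SE 0.53, 95% interval 1.61 to 3.95). Reln passed the filter on low counts only through the ARM libraries, so it had to differ. Its call is therefore not read as a test, and its values are a description. The log2 fold change was 2.63 without ARM replicate 1 and 2.92 without ARM replicate 2. ND ARMs gave 18 and 14 reads and ND SMs 0 and 2, a ratio of 15.98 whose counting interval ran from 4.08 to 138.

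Reelin acts through the lipoprotein receptors VLDLR and LRP8, which pass the signal to Src family kinases through Dab1. Vldlr was called higher in ND ARMs, with 69 reads in each ARM library against 33 and 36 (log2 0.999, SE 0.27, edgeR adjusted p = 0.0475). In HFD mice it was 31 and 47.1 against 24.0 and 21.1 reads (log2 0.81, edgeR adjusted p = 0.152). Lrp8, the other receptor, went the opposite way and was called lower in HFD ARMs, at 166 and 195 reads against 291 and 321 (log2 -0.74, SE 0.12, edgeR adjusted p = 0.00331), where 0.292% of all genes were called lower. In ND mice Lrp8 overlapped (log2 -0.22, edgeR adjusted p = 0.655). Src was called higher in HFD ARMs (log2 0.74, edgeR adjusted p = 0.0160) and not in ND ARMs (log2 0.77, edgeR adjusted p = 0.120). Of all genes, 4.46% (HFD) and 3.55% (ND) were called higher. Of 6 tested genes in each diet, 1 was called higher and 1 lower in HFD mice and 1 higher in ND mice. The higher call in HFD mice was lost by DESeq2 and without either ARM library or SM replicate 1, the lower call without ARM replicate 1, and the ND call by DESeq2 and without ARM replicate 2 or either SM library. The adaptor Dab1 was listed for HFD mice only, with 1 read in all.

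Mmrn1 (Entrez 70945, chr6:60944317-60989378) encodes multimerin-1, a secreted glycoprotein stored in platelets and endothelium. In HFD mice it gave 43 and 30 reads in ARMs and 7 and 15 in SMs, and each ARM library had 2 times the reads of the higher SM library or more. The SM libraries alone would not have carried Mmrn1 past the filter on low counts. The log2 fold change was 1.74 (SE 0.41, 95% interval 0.82 to 2.66, edgeR adjusted p = 0.0260). This call was the least firm of the 3, with an adjusted p of 0.241, 0.116 and 0.0948 without ARM replicate 1, ARM replicate 2 or SM replicate 1, and 0.0699 by DESeq2. In ND mice it gave 31 and 17 reads in ARMs and 0 and 2 in SMs. The ND ratio was 24.0 with a counting interval of 6.28 to 204.

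Its relative Mmrn2, a matrix protein of blood vessel endothelium, was called higher in HFD ARMs, with 162 and 154 reads against 65 and 35 (log2 1.68, SE 0.24, edgeR adjusted p = 0.00165). In ND mice Mmrn2 overlapped at 24 and 41 against 18 and 25 reads (log2 0.61, edgeR adjusted p = 0.553). Of the 3 tested genes of the EMILIN and multimerin family, 1 was called in HFD mice, beside 4.46% of all genes called higher. None was called in ND mice by edgeR or DESeq2, with 0 at an unadjusted p under 0.05.

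Pdpn (Entrez 14726, chr4:143267409-143299564) encodes podoplanin and held 42.1% to 71.7% of the reads of the 6 transcripts in a library. In HFD mice it gave 149 and 176 reads in ARMs and 124 and 111 in SMs. Both ARM libraries were higher, by a fold of 1.40 that lay under the threshold of 1.5 (log2 0.49, SE 0.15, 95% interval 0.16 to 0.82, edgeR adjusted p = 0.0709). In ND mice the counts were 161 and 159 in ARMs and 66 and 72 in SMs, a ratio of 2.32 with a counting interval of 1.89 to 2.85. Pdpn had the narrowest counting interval of the transcripts that were apart in ND mice, since it had the most reads.

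Among partners of podoplanin, Clec1b, which encodes its platelet receptor CLEC-2, gave 2 to 7 reads in HFD libraries and 2 to 4 in ND libraries and was not tested. Cd9, a tetraspanin that binds podoplanin and is a surface marker of adipose macrophages, was called higher in HFD ARMs at 605 and 850 against 457 and 376 reads (log2 0.83, SE 0.15, edgeR adjusted p = 0.00615). In ND mice it was higher in both ARM libraries with a fold under 1.5 (log2 0.52, edgeR adjusted p = 0.0343). Of 5 tested partners 1 was called in HFD mice, beside 4.46% of all genes called higher. None was called in ND mice by edgeR, with 2 at an unadjusted p under 0.05, or by DESeq2, with 3. The HFD count was 0 without ARM replicate 2, and the ND count was 1 without ARM replicate 1 and 2 without SM replicate 2.

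**Figure D3:**
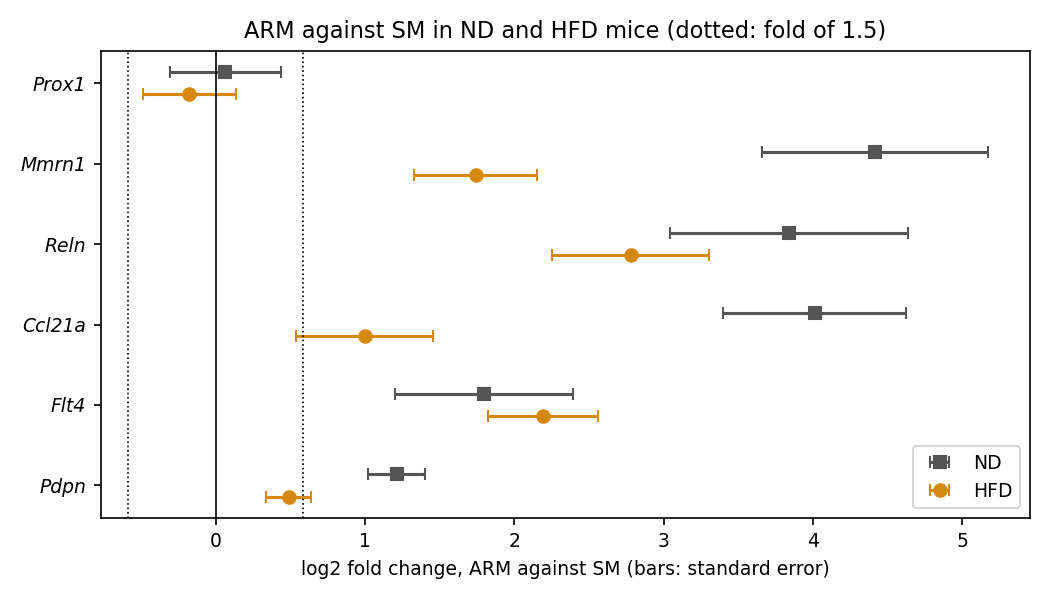
Log2 fold change of ARMs against SMs (horizontal axis) for each of the 6 transcripts in ND mice (grey squares) and HFD mice (orange circles), with bars of 1 standard error and dotted lines at a fold of 1.5 either way. Prox1 lies at 0 within its error in both diets, Flt4, Reln and Mmrn1 lie past the upper line in both, and the ND points of Mmrn1, Ccl21a and Reln rest on 0 to 5.48 reads in SMs and depend on the prior count of the fit.

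Scaled for transcript length, the 6 transcripts covered a wide range of levels. In TPM, Pdpn was 10.3 ± 1.20 (SD, n = 2) and Ccl21a 9.34 ± 2.19 in HFD ARMs, and their libraries overlapped. Flt4 at 0.985 ± 0.134 and Mmrn1 at 0.905 ± 0.233 also overlapped, above Prox1 at 0.540 ± 0.0849 and Reln at 0.210 ± 0.0283. In ND ARMs the order by TPM was Pdpn at 12.9 ± 1.03, Ccl21a at 7.99 ± 0.778, then Mmrn1 at 0.715 ± 0.233 overlapping Prox1 at 0.505 ± 0.106, then Flt4 at 0.295 ± 0.0212 and Reln at 0.190 ± 0.0141. Flt4 therefore stood above Prox1 in ARMs of HFD mice and below it in ARMs of ND mice.

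Prox1 ranked higher in SMs than in ARMs of the same diet. In HFD SMs it was the third of the 6 by TPM at 0.555 ± 0.0778, below Pdpn at 7.28 ± 0.495 and Ccl21a at 4.67 ± 4.10, which overlapped, and above Mmrn1 at 0.270 ± 0.141 and Flt4 at 0.215 ± 0.106, which also overlapped. Reln was at 0.0300 ± 0.0141 TPM there. In ND SMs Pdpn was at 5.46 ± 0.184 TPM, Ccl21a at 0.5 ± 0.707 overlapped Prox1 at 0.470 ± 0.0141, Flt4 was at 0.0800 ± 0.0141, and Mmrn1 at 0.0300 ± 0.0424 overlapped Reln at 0.0100 ± 0.0141.

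Set side by side with no test, the ARM means of the 2 diets were nearest for Prox1, Ccl21a and Reln. In SMs, both ND libraries lay below both HFD libraries in TPM for each of the 6 except Reln, which touched at 0.02. Prox1 in SMs was 0.50 and 0.61 TPM in HFD mice and 0.46 and 0.48 TPM in ND mice. Flt4 in SMs was 0.29 and 0.14 TPM in HFD mice and 0.07 and 0.09 TPM in ND mice. Mmrn1 in SMs was 0.17 and 0.37 TPM in HFD mice and 0 and 0.06 TPM in ND mice. Ccl21a in SMs was 1.77 and 7.57 TPM in HFD mice and 0 and 1 TPM in ND mice. Flt4 differed in ARMs as well, at 0.89 and 1.08 TPM in HFD mice and 0.31 and 0.28 TPM in ND mice. The tables of the diets were made separately, so diet and table cannot be told apart, and the difference between diets was not tested.

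The list of lymphatic pathway genes, with the 6 transcripts left out, was a mixture. In HFD mice 10 of 40 tested genes were called higher and 1 lower, beside 4.46% and 0.292% of all genes, with a median log2 fold change of 0.26 against -0.01 over all genes. In ND mice 4 of 33 were called higher and none lower, beside 3.55%, with a median of 0.41 against -0.02. The list was drawn up with earlier results of these libraries known. The HFD count was 5 without ARM replicate 1 and 5 without ARM replicate 2. The ND count was 8 without ARM replicate 1, 1 without ARM replicate 2, 2 without SM replicate 1 and 1 by DESeq2.

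Further markers of lymphatic endothelium fell into groups of unlike level. In HFD mice 4 of 10 tested were called higher and in ND mice 1 of 6, beside 4.46% and 3.55% of all genes. Lyve1, the hyaluronan receptor shared by lymphatic vessels and resident macrophages, was abundant, at 22086 and 19072 reads in HFD ARMs and 32198 and 30234 in HFD SMs. Its log2 fold change of -0.58 was past the adjusted p and just short of the fold of 1.5 (SE 0.08, edgeR adjusted p = 0.00134). In ND mice Lyve1 overlapped at 25230 and 20451 against 26853 and 24475 reads (log2 -0.18, edgeR adjusted p = 0.518). Aqp1, the water channel of vessels, Angpt2, the TIE2 ligand, Tspan18 and Ptx3, a soluble pattern receptor, were called higher in HFD ARMs, at 1.15, 1.32, 0.93 and 0.66 on the log2 scale (edgeR adjusted p = 2.06e-05, 0.0184, 0.0288 and 0.0290). In ND mice Ptx3 was the only call of this list, at 338 and 431 against 50 and 113 reads (log2 2.25, SE 0.25, edgeR adjusted p = 0.000166). The 4 higher calls in HFD mice became 1 by DESeq2 and without ARM replicate 1, ARM replicate 2 or SM replicate 2, with 1 gene lower without ARM replicate 1 or SM replicate 2. The ND count was 3 without ARM replicate 1.

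Transcripts of other cell types moved in the same comparisons, and in bulk libraries fewer cells of a type and less RNA per cell cannot be told apart. Blood and pan-endothelial markers rose in HFD ARMs, with 19 of 22 called higher, beside 4.46% of all genes. The median log2 fold change of these markers was 1.44. Among them Pecam1, the endothelial junction protein, was at 1.52 (edgeR adjusted p = 0.000126) and Cdh5, VE-cadherin, at 1.38 (edgeR adjusted p = 0.000235). Their summed TPM was 321 and 314 in HFD ARMs against 196 and 188 in SMs. In ND ARMs 1 of 22 was called, near the 3.55% of all genes called higher. The call was Tek, the angiopoietin receptor TIE2 (log2 1.32, edgeR adjusted p = 0.0165). Of the 22, 13 had an unadjusted p under 0.05 in edgeR, the median was 0.78 and none was called by DESeq2. That ND count was 12 without ARM replicate 1, 0 without ARM replicate 2 or SM replicate 1 and 2 without SM replicate 2. ND ARM replicate 1, at 151 TPM of these markers, was near the SM libraries at 149 and 154, while ARM replicate 2 was at 222. None of the 22 markers was at 0 in all libraries, and their part in the 6 transcripts' values was not tested.

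Relative to Cdh5, the 6 transcripts behaved unlike each other. Pdpn per 100 TPM of Cdh5 was lower in HFD ARMs, at 38.6 and 49.8 against 72.5 and 94.7, and higher in ND ARMs, at 199 and 116 against 112 and 99.8. Prox1 per 100 TPM of Cdh5 was 2.45 and 2.15 in HFD ARMs and 4.75 and 8.33 in SMs, and 7.01 and 4.91 in ND ARMs against 9.70 and 8.57 in SMs. Prox1 was lower in ARMs on this scale in both diets, where the Cdh5 level itself was higher. Reln per 100 TPM of Cdh5 stayed higher in ARMs, at 0.939 and 0.850 against 0.380 and 0.273 in HFD mice and at 3.26 and 1.52 against 0 and 0.357 in ND mice. Flt4 was also higher on this scale, at 3.63 and 4.83 against 2.75 and 1.91 in HFD mice and at 5.06 and 2.37 against 1.48 and 1.61 in ND mice. Mmrn1, at 4.37 and 3.31 against 1.61 and 5.05, and Ccl21a, at 31.8 and 48.7 against 16.8 and 103, overlapped between HFD groups. HFD SM replicate 2 was the highest HFD library for both. In ND mice both were higher in ARMs on this scale, Mmrn1 at 14.4 and 4.65 against 0 and 1.07 and Ccl21a at 121 and 72.3 against 0 and 17.9.

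Mesothelial cells, which cover the fat pad, also make podoplanin. Their markers moved in ND mice. In ND ARMs 8 of 10 tested were called higher, beside 3.55% of all genes, with a median of 1.96. Msln was at 2.09 and Upk3b at 1.98 on the log2 scale (edgeR adjusted p = 0.000781 and 0.000197). The summed TPM of the markers was 44.4 and 56.8 in ND ARMs against 12.3 and 16.4 in ND SMs. The ND count was 5 without ARM replicate 2. In HFD mice none of 10 was called by edgeR, with 1 at an unadjusted p under 0.05, or by DESeq2, with 0, and the summed TPM overlapped at 41.6 and 30.2 against 37.1 and 19.6. The HFD count was 4 without SM replicate 1. The part of these markers in the Pdpn values was not tested.

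Fibroblast and progenitor markers were called higher in 10 of 12 cases in ND ARMs and 5 of 12 in HFD ARMs. Over all genes the shares called higher, here and for the lists that follow, were 3.55% (ND) and 4.46% (HFD). Fibroblast medians were 1.28 and 0.54, with Col1a1 at 1.90 and 0.71 on the log2 scale. Pdgfra was called in ND mice only, at 1.43 against 0.57. The HFD count was 0 without ARM replicate 2 and 3 by DESeq2. Pericyte and smooth muscle markers were called higher in 4 of 10 in HFD ARMs, Rgs5 at 1.20, and in 3 of 9 in ND ARMs, Rgs5 at 1.06, with Acta2 at 0.54 and 0.25 not called. Without SM replicate 1 that HFD count was 7, and the ND count was 5 without ARM replicate 1 and 0 without ARM replicate 2. Adipocyte markers were called higher in 8 of 10 in HFD ARMs and 7 of 10 in ND ARMs, Adipoq at 2.85 and 1.47, and the ND count was 3 without ARM replicate 2. Of T, NK and B cell markers, 1 of 5 tested was called in HFD mice, Cd4 at 0.88, which was not called without ARM replicate 1, and none of 5 in ND mice by edgeR or DESeq2, with 0 at an unadjusted p under 0.05. Each of these lists had reads for every listed gene in at least 1 library of a diet, and the part of any of them in the values above was not tested.

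**Figure D4:**
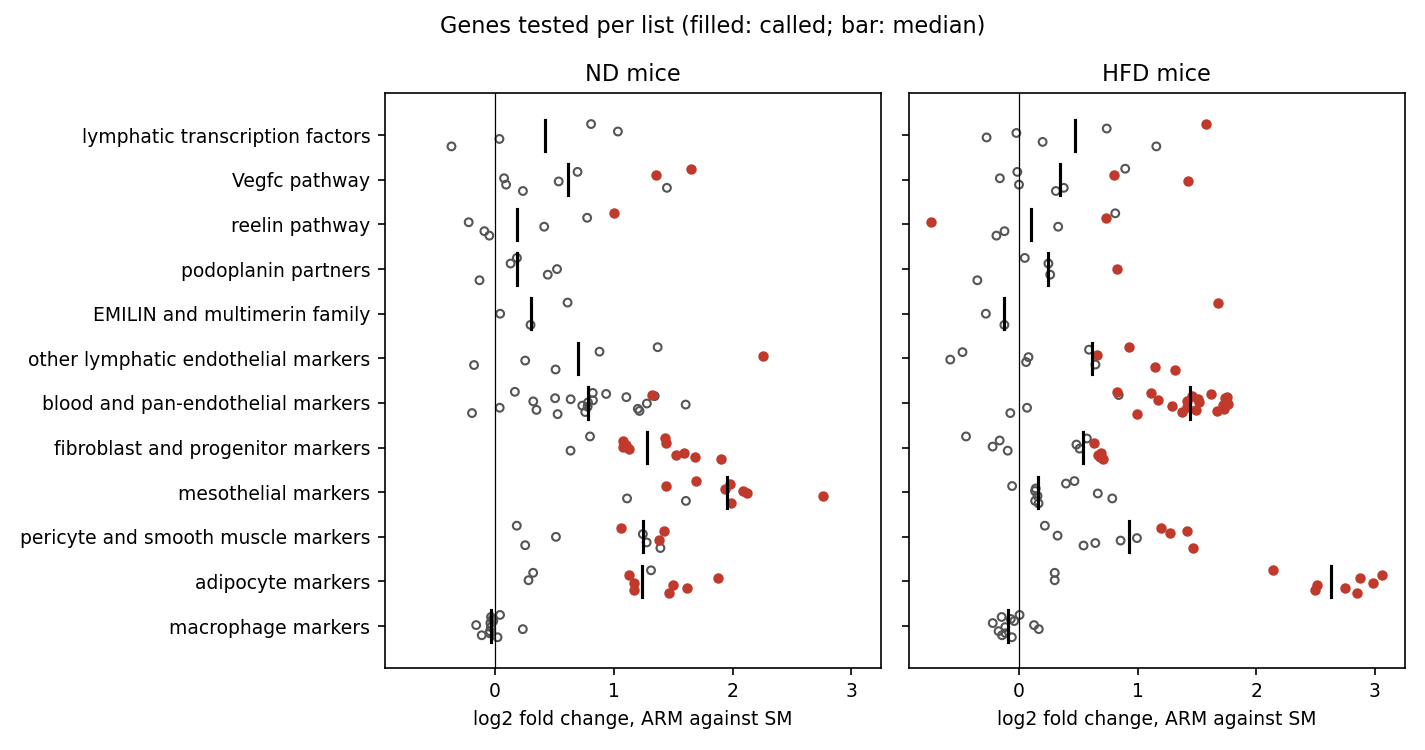
Log2 fold change of ARMs against SMs (horizontal axis) for every tested gene of each marker or pathway list (rows) in ND mice (left) and HFD mice (right), with called genes filled in red and the list's median as a black bar. Macrophage markers sit near 0 in both diets, blood and pan-endothelial markers are mostly called in HFD mice and rarely in ND mice, and mesothelial markers are called in ND mice and not in HFD mice.

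Summed over the 6 transcripts, CPM (counts scaled to a common library size) were 19.2 and 20.6 in HFD ARMs, 10.3 and 12.3 in HFD SMs, 17.5 and 18.8 in ND ARMs and 6.20 and 6.83 in ND SMs. The genes closest to this summed profile over the 8 libraries, among 12343 compared, were Slc43a3, the collagen gene Col3a1, the basement membrane gene Nid1, the matricellular gene Smoc2 and Ssc5d. Their root mean square differences from it were 0.155, 0.159, 0.165, 0.168 and 0.176 on the log2 scale. The sum follows Pdpn most, and libraries of one diet and cell type share their preparation, so the likeness is a description.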

How the data were processed

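RNA-seq of ARMs and SMs of eWAT was deposited as 1 table per diet. The authors gave every gene and library an estimated count (expected count), an FPKM and a TPM. The submitters' processing notes name mm10, while the aligner, the counting program and strand use are not given in the sources used here. Of the deposited estimated counts, 32.3% to 32.9% per HFD library and 8.55% to 9.36% per ND library were not whole (tolerance 0.001), so the tables were not made alike, and each diet was fitted by itself. NARM in the titles was taken as SM. Whether libraries of a group came from separate sorts is not stated, so p-values measure only the spread between these libraries.

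Counts were rounded and fitted with edgeR 4.0.16 (R 4.3.3) by the quasi-likelihood test after filterByExpr and TMM normalization, with p adjusted by Benjamini-Hochberg. Ratios of summed normalized counts carry exact binomial 95% intervals that cover counting error only. Alternatives were DESeq2 1.42.0, RLE size factors, library totals, no filter, 10 counts in every library, 1 fit of 8 libraries, a replicate block, limma 3.58.1 on log2(FPKM + 1) or log2(FPKM + 0.1), which understates changes of low genes, the threshold of the study's methods (log2 beyond 0.6, unadjusted p under 0.05) and each library left out. The sum of Ccl21 copies was added after the data were seen. The fit was tested on simulated data. Coordinates are RefSeq GRCm38.p6, matched by Entrez ID for 6 of 6 transcripts.

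The transcripts and lists were chosen with earlier results of these data known. Named genes are the 6 transcripts, the Ccl21 copies, called pathway genes with fixed ligands, receptors and relatives, defining markers of other lists, and the 5 genes closest to the summed profile, by root mean square difference of centred log2(CPM + 1).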

Additional observations from a re-analysis of the deposited data

Results flagged for a closer look

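Nrp2, which encodes the neuropilin co-receptor of VEGF-C and is abundant in macrophages, was the only gene tested in both diets, among the 6 transcripts, the pathway lists and the endothelial markers, whose ARM libraries both lay below the SM libraries in one diet and both above in the other. Sema3d, not tested in ND mice for lack of reads, had the same pattern. In HFD mice both ARM libraries were below both SM libraries after normalization, at 4923 and 4412 reads against 5153 and 5446, and the log2 fold change was -0.16 (edgeR adjusted p = 0.219). In ND mice both ARM libraries were above, at 4995 and 4357 against 4194 and 4673 reads, and the log2 fold change was 0.08 (edgeR adjusted p = 0.804). The difference between diets was not tested. Of all tested genes, 26.5% had both ARM libraries below both SM libraries in HFD mice and 21.2% had both above in ND mice. The Nrp2 pattern is therefore given as a description.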

How the results depend on the processing

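Of the 6 transcripts, edgeR called 3 in HFD mice. The count was 0 with no filter on low counts (4 at an unadjusted p under 0.05), with 10 counts in every library (3 tested, 2 at an unadjusted p under 0.05), and with limma at either pseudocount (2 tested, both at an unadjusted p under 0.05) or without a filter (6 tested, 4 at an unadjusted p under 0.05), and it ranged from 0 to 4 with a library left out. In ND mice, where the transcripts were chosen by this contrast and the counts therefore say nothing about stability, the count of 4 became 1 with 10 counts in every library, 2 with limma at either pseudocount and 0 with limma without a filter, and ranged from 2 to 4 with a library left out. Stricter filters test fewer of the transcripts, and otherwise the cause was not tested. The log2 fold change of Prox1 in HFD mice ranged from -0.53 to 0.11 with a library left out, turning to 0.11 without ARM replicate 2 and 0.002 without SM replicate 2. Over all alternatives run, HFD log2 fold changes ranged from 1.24 to 2.39 for Mmrn1, 0.80 to 3.34 for Reln, 1.54 to 2.84 for Flt4, 0.38 to 0.60 for Pdpn and 0.30 to 2.40 for Ccl21a, each above 0 throughout.

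Pathway calls in HFD mice, 11, became 2 with no filter, 6 in the fit of 8 libraries, 5 and 7 with limma at pseudocounts of 1 and 0.1 and 0 with limma without a filter (21 at an unadjusted p under 0.05), and ranged from 5 to 10 with a library left out. In ND mice the 4 calls became 1 with DESeq2, 7 with no filter, 1 and 2 with limma at pseudocounts of 1 and 0.1, 0 with limma without a filter (15 at an unadjusted p under 0.05) and 9 at the threshold of the study's methods, and ranged from 1 to 8. Blood and pan-endothelial calls in HFD mice, 19, became 11 with no filter and 0 with limma without a filter (19 at an unadjusted p under 0.05). In ND mice the 1 call became 0 with DESeq2 (8 at an unadjusted p under 0.05), 8 with no filter, 2 in the fit of 8 libraries, 0 with limma at either pseudocount (9 tested, 4 at an unadjusted p under 0.05), 0 with limma without a filter (3 at an unadjusted p under 0.05) and 13 at the threshold of the study's methods, and ranged from 0 to 12.

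With the replicate number as a block, 3 of the 6 transcripts were called in HFD mice and 5 in ND mice, ND pathway calls became 7 and ND endothelial calls 11. Deviations of same-numbered libraries correlated at 0.0181 (HFD, 13337 genes) and 0.279 (ND, 12441 genes), and with 2 pairs and no shared litter or day in the labels the numbers were not taken to pair the libraries. Among comparisons of a count of calls with its value under an alternative, 47 stayed within 1.5 times and 43 did not. Few reads, 0 to 55 in a library, limit what can be seen for Prox1, Reln, Mmrn1 and Flt4.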

Other observations

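Some lymphatic markers had too few reads to be tested in 1 or both diets, and those below were chosen after their values were seen. Klhl4 gave 9 and 12 reads in HFD ARMs against 3 and 5 in SMs, and 6 and 10 in ND ARMs against 2 and 2. Foxc1, a transcription factor of lymphatic and other vessels, gave 29 and 24 against 17 and 7 reads in HFD mice (log2 1.16, edgeR adjusted p = 0.133) and 5 and 8 against 0 and 1 in ND mice. Fxyd6, a subunit that regulates the sodium pump, gave 26 and 28 against 20 and 15 reads in HFD mice (log2 0.65, edgeR adjusted p = 0.293) and 9 and 8 against 2 and 1 in ND mice. Sema3d, a secreted guidance factor, was lower in ARMs of HFD mice at 13 and 11 against 15 and 19 reads (log2 -0.47, edgeR adjusted p = 0.545), and was 10 and 22 against 5 and 7 reads in ND mice. Madcam1, Nts, Cldn11 and Tbx1 had at most 4 reads in any library.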
